A study of Drosophila melanogaster with 32 samples.

Results

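The miRNAs bound to Argonaute-1 (Ago1) were compared between female and male fruit flies (Drosophila melanogaster) at 5 days of age. The members were the features named miR-, let- or bantam that averaged at least 5 reads over the 8 libraries compared, which left 199 of 209 listed miRNAs, out of 332 features with transposons included. The 10 miRNAs below that mean were not tested. A miRNA bound almost only in 1 sex could meet the mean through that sex. The libraries fell into 4 female ones (2 of genotype wDah and 2 of wDah;dfoxo{delta}94, called dFOXO-null) and 4 male ones of the same genotypes, each genotype and sex with experiments 1 and 2. wDah served as the wild type and carries the white mutation on the genetic background of Dahomey, an outbred stock. The dfoxo{delta}94 flies share that background and lack the transcription factor dFOXO in the whole animal, through a large deletion left when a transposon jumped out of the gene. Each library came from 1 lysate of 40 whole mated flies, precipitated with an antibody against Ago1. Females and males of a genotype were kept together at 25 °C, so the female and male libraries of a genotype and experiment are not independent. The whole series held 32 libraries, which also covered Ago2 precipitates and 35-day-old flies.

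In flies most miRNAs are cut from a hairpin by Drosha and Dicer-1, and 1 arm of the duplex stays in Ago1 and guides the silencing of mRNAs with sites matching its seed. The 5p and 3p names give the arm of the hairpin. Several fly miRNAs are known mainly from the ovary, the testis or the early embryo. In such bulk samples, fewer cells of a type and less RNA per cell cannot be told apart, and the values measure what Ago1 held, not all miRNA in the fly.

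The mature sequences of the miRNAs on which the comparison turned are shown first, from RefSeq on build dm6, with the seed (bases 2 to 8) in capitals. The first set holds miRNAs that were higher in females. miR-994 and miR-318 lie 74 bp apart in an intergenic stretch at chr3R:10408137-10408369, and miR-92a lies in an intron and miR-92b in an exon of the gene jigr1 at chr3R:25646506-25651497. miR-9c, miR-306, miR-79 and miR-9b lie within introns of grp at chr2L:16697924-16698834.
miR-318-3p: uCACUGGGcuuuguuuaucuca
miR-994-5p: cUAAGGAAauaguagccgugau
miR-92a-3p: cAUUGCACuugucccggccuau
miR-92b-3p: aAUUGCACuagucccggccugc
miR-9b-5p: uCUUUGGUgauuuuagcuguaug
miR-9c-5p: uCUUUGGUauucuagcuguaga
miR-306-5p: uCAGGUACuuagugacucucaa
miR-275-3p: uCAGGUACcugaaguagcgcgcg
miR-995-3p: uAGCACCAcaugauucggcuu
miR-998-3p: uAGCACCAugagauucagcuc
miR-92a-3p and miR-92b-3p matched at 18 of 22 bases and shared their seed, as did miR-306-5p with miR-275-3p and miR-995-3p with miR-998-3p. miR-995 lies in an intron of Cdk2 and miR-998 in an intron of E2f1, both genes of the cell cycle.

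The second set holds miRNAs that were lower in females, from 2 intergenic clusters of the X chromosome (miR-975, miR-976 and miR-977 within chrX:19551528-19559120, and miR-983 and miR-984 within chrX:4365806-4368735) and from the miR-959 cluster at chr2L:5640940-5642201.
miR-975-5p: uAAACACUuccuacauccuguau
miR-976-3p: uUGGAUUAguuaucaucaaugc
miR-977-5p: uAGAUAACucgaauaucacauc
miR-983-5p: aUAAUACGuuucgaacuaauga
miR-984-5p: uGAGGUAAauacgguuggaauuu
miR-960-5p: uGAGUAUUccagauugcauagc
The third set holds miRNAs that carried a seed of the sets above, or a large share of all reads, and did not pass the test. miR-9a-5p shared its seed with miR-9b-5p and miR-9c-5p, miR-285-3p with miR-995-3p, and miR-12-5p with miR-960-5p.
miR-9a-5p: uCUUUGGUuaucuagcuguauga
miR-285-3p: uAGCACCAuucgaaaucagugc
miR-12-5p: uGAGUAUUacaucagguacuggu
miR-1-3p: uGGAAUGUaaagaaguauggag
miR-276a-3p: uAGGAACUucauaccgugcucu
miR-276b-3p: uAGGAACUuaauaccgugcucu
miR-276a-3p and miR-276b-3p differed at 1 base, so the 1-mismatch alignment could place a read of one in both, and their 5p arms had identical counts in all 8 libraries.

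The 4 female libraries held 1802107 to 2831580 mapped reads and the 4 male libraries 2030355 to 4179657. miRNAs made up 98.6% to 99.5% of mapped reads in females and 99.4% to 99.8% in males. Abundance is given below in RPM, the reads of a miRNA per 1000000 mapped reads, where 10000 RPM is 1%, and the 4 values of a sex are always in the order wDah experiments 1 and 2, then dFOXO-null experiments 1 and 2. Replicates of each group differed far beyond sampling noise, so no library was a copy of another.

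More than 1 in 2 miRNAs differed between the sexes. Of the 199 tested, 106 passed an adjusted p of 0.05 (53.3%), 47 of them higher in females (23.6% of those tested) and 59 lower (29.6%), by edgeR's quasi-likelihood test with genotype and experiment as terms. The 4 female and 4 male libraries did not overlap for 64 miRNAs (32.2%). The median log2 fold change over all 199 was -0.17. The fold changes ran from 10.21 for miR-994-5p, known from the ovary, to -8.63 for miR-975-5p, of an X-linked testis cluster. Within experiment 1 alone 65 miRNAs passed, and within experiment 2 alone 122. Each of these fits had 4 libraries and the read filter applied anew, so the number tested may differ from 199. With the 16 Ago1 libraries of both ages in 1 fit of 8 group means, 68 passed. The p-values measure the spread left among the 8 libraries once genotype, experiment and sex are fitted. A shift shared by all libraries of an experiment does not count in it. Fewer miRNAs passed without experiment as a term, as given further below.

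**Figure D1:**
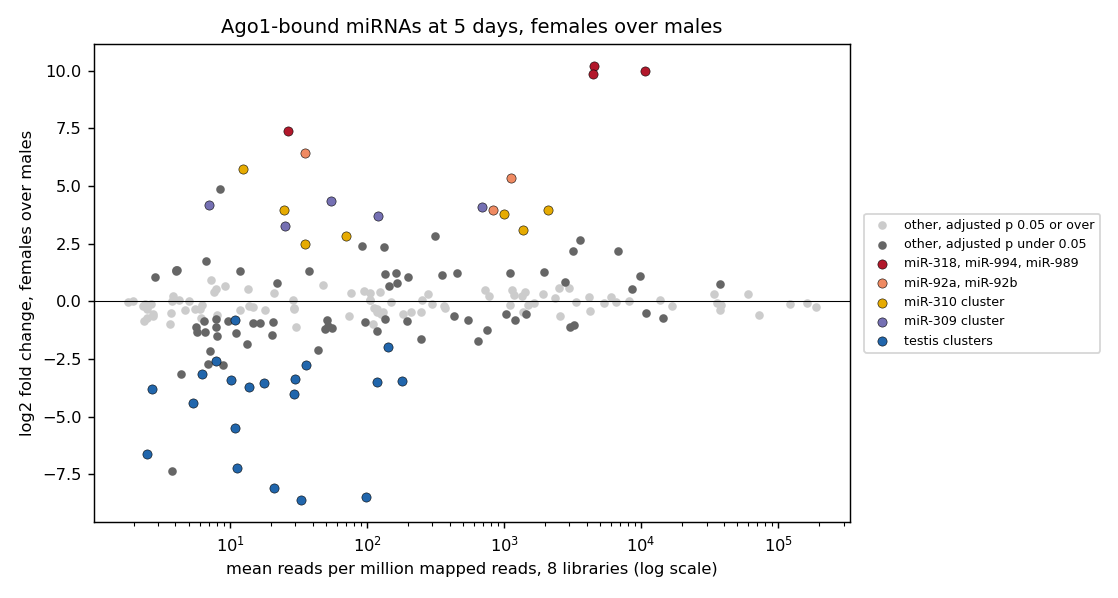
Mean RPM over the 8 libraries (x axis, log scale) against the log2 fold change of females over males (y axis), 1 point per miRNA tested, with 5 sets of miRNAs in colour. The points of miR-318, miR-994 and miR-989 lie between 7.40 and 10.21, and those of the testis clusters between -8.63 and -0.82.

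miR-318, miR-994 and miR-989 are miRNAs of the ovary, and miR-989 is known from the migration of border cells in the egg chamber. All 4 of their listed arms were higher in females. miR-318-3p had 32029, 22781, 21195 and 9116 RPM in female libraries, against 45.9, 10.1, 50.7 and 3.83 in male libraries (log2 fold change 9.99, SE 0.59, adjusted p = 1.86e-06). miR-994-5p, the main arm of its hairpin, had 14206, 5719, 13081 and 3035 RPM in female libraries, against 20.7, 1.74, 20.2 and 0.718 in male libraries (log2 fold change 10.21, SE 0.55, adjusted p = 1.26e-06). miR-989-3p had 5975, 5827, 12306 and 11739.8 RPM in female libraries, against 19.5, 2.31, 20.7 and 4.55 in male libraries (log2 fold change 9.84, SE 0.62, adjusted p = 2.09e-06). For all 3 miRNAs every female library lay above every male library. Among males, the libraries of experiment 1 were the higher ones in both genotypes. miR-994-3p, the minor arm, held 463 reads in females and 3 in males, a pooled ratio of 206 (95% exact binomial interval 69.9 to 1000.5, adjusted p = 2.36e-06). Such intervals cover counting error only. miR-994-3p met the mean of 5 reads only through the female libraries. Together the 4 arms took 23917 to 52291 RPM in female libraries and 9.09 to 92.1 in male libraries.

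**Figure D2:**
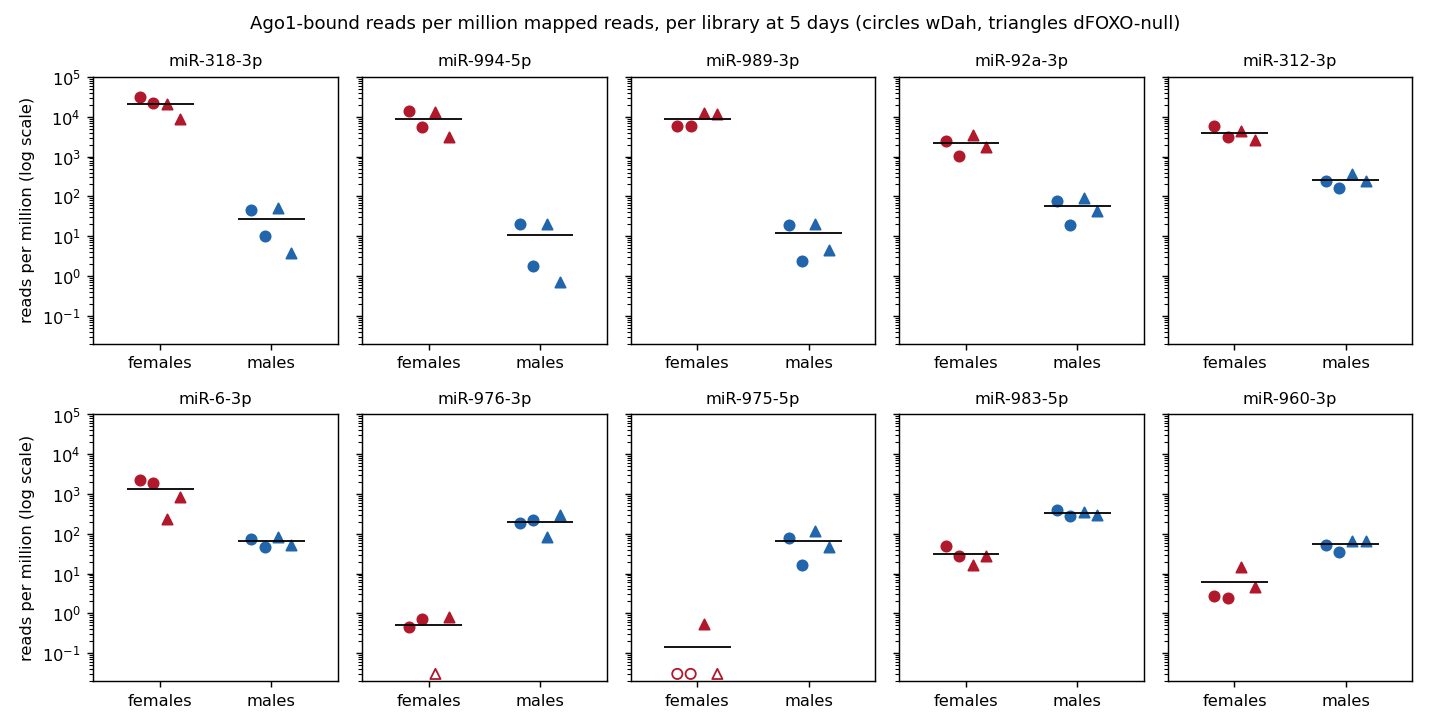
RPM (y axis, log scale) of 10 miRNAs in each female and male library, with circles for wDah, triangles for dFOXO-null, bars for the mean of 4 libraries, and open symbols at the lower edge for libraries with no read. The first 6 miRNAs sit higher in all 4 female libraries and the last 4 higher in all 4 male libraries.

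The miR-92 seed (AUUGCAC) is carried by miR-92a and miR-92b, which are known from neural stem cells, and by the 4 miRNAs of the miR-310 cluster. All 6 of the 3p arms with this seed were higher in females, with a median log2 fold change of 3.95 and a range of 3.08 to 5.33. miR-92a-3p had 2544, 1042, 3455 and 1747 RPM in female libraries, against 76.5, 18.8, 89.1 and 43.5 in male libraries (log2 fold change 5.33, SE 0.24, adjusted p = 8.99e-07). miR-92b-3p had 1817, 759, 2265 and 1347 RPM in female libraries, against 122, 47.2, 168 and 77.0 in male libraries (log2 fold change 3.95, SE 0.19, adjusted p = 8.99e-07). The sexes did not overlap for either miRNA, and in both sexes the dFOXO-null library of experiment 1 was the highest. The minor arm miR-92a-5p had 93.7, 24.7, 105 and 55.2 RPM in female libraries and 0.765, 0.579, 0 and 0.957 in male libraries (log2 fold change 6.45, SE 0.55, adjusted p = 1.17e-05). Its male values stood for very few reads per library, so the size of that difference is uncertain.

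The miR-310 cluster (miR-310 to miR-313) is made in ovaries and embryos and is known for its link to Hedgehog signalling. All 7 of its listed arms were higher in females, with a median log2 fold change of 3.77 against -0.17 over all miRNAs tested. miR-312-3p, its most abundant arm, had 5825, 3039, 4353.8 and 2583 RPM in female libraries, against 238, 166, 366 and 238 in male libraries (log2 fold change 3.95, SE 0.24, adjusted p = 2.03e-06). miR-311-3p had 3911, 1405, 3168 and 1337 RPM in female libraries, against 352, 116, 452 and 238 in male libraries (log2 fold change 3.08, SE 0.25, adjusted p = 9.25e-06). miR-310-3p had 2279, 887, 3049 and 1141 RPM in female libraries, against 148, 40.8, 277 and 117 in male libraries (log2 fold change 3.77, SE 0.24, adjusted p = 2.10e-06). The female and male libraries of these 3 arms did not overlap. miR-313-3p and miR-313-5p were rare in males, at 35.7 to 63.8 and 5.40 to 50.5 RPM in female libraries against 1.15 to 6.40 and 0 to 0.985 in male libraries, with log2 fold changes of 3.95 and 5.74 (adjusted p = 0.000101 and 1.01e-05). The male values of miR-313-5p stood for very few reads per library, so the size of its difference is uncertain. The minor arms miR-312-5p and miR-311-5p had log2 fold changes of 2.82 and 2.50 (adjusted p = 0.000104 and 0.000194). miR-311-5p was the single arm of the cluster whose female and male libraries overlapped, at 17.0 to 160.4 against 3.18 to 21.2 RPM.

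The miR-309 cluster is made at the onset of zygotic transcription and helps to clear maternal mRNAs. Its 5 listed arms (miR-286-3p, miR-4-3p, miR-6-3p, miR-5-5p and miR-3-3p) were all higher in females, with log2 fold changes of 4.37, 4.19, 4.08, 3.71 and 3.26 (adjusted p = 0.000272, 0.000391, 0.000417, 0.00102 and 0.00205). miR-6-3p, the most abundant arm, had 2201, 1947, 241 and 847 RPM in female libraries, against 74.6, 45.7, 84.7 and 52.6 in male libraries. miR-5-5p had 317, 385, 27.2 and 185 RPM in female libraries, against 12.6, 12.2, 13.3 and 17.2 in male libraries. The dFOXO-null female library of experiment 1 was the lowest of the 4 female libraries for every arm of the cluster but still lay above all male libraries. The sum over the cluster ranged from 324 to 2861 RPM in female libraries and from 66.2 to 109 in male libraries. Within experiment 1 alone the calls of miR-6-3p, miR-5-5p and miR-3-3p were lost (log2 fold changes 3.21, 2.92 and 2.80, adjusted p = 0.0711, 0.103 and 0.148). Several of these arms carry seeds of miRNAs outside the cluster. miR-3-3p shares the seed of miR-318-3p (CACUGGG), miR-6-3p that of the K-box miRNAs (AUCACAG), and miR-286-3p that of miR-279-3p and miR-996-3p (GACUAGA).

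The 4 testis clusters held 21 listed arms, of which 20 were tested, and 19 of these were lower in females and none higher. Such clusters are young in evolution and known from the testis. Their median log2 fold change was -3.63, or -3.52 with arms that had no read in females set at their bound. Several of these arms met the mean of 5 reads only through the male libraries, as given below. Summed over the clusters, female libraries had 71.7 to 316 RPM and male libraries 1138 to 1589.

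The lowest values were those of the X-linked miR-972 cluster, where females held almost no reads. miR-976-3p had 0.459, 0.706, 0 and 0.831 RPM in female libraries, against 186, 223, 82.7 and 291 in male libraries (log2 fold change -8.49, SE 0.49, adjusted p = 1.86e-06). miR-975-5p held 1 read in the 4 female libraries together and 701 in the 4 male libraries, where it had 78.5, 16.5, 119 and 47.1 RPM. Its pooled male-to-female ratio was 526 (95% exact binomial interval 94.2 to 20816, adjusted p = 2.09e-06). miR-977-5p and miR-4966-3p each had 1 female read, against 556 and 290 male reads, with pooled male-to-female ratios of 417 (interval 74.6 to 16517) and 218 (interval 38.8 to 8629). miR-974-5p had no read in any female library and 57 in males, so it was at least 3.69-fold lower in females, against a floor of 3 reads per female library (adjusted p = 0.00155). miR-973-5p had 4 reads, all in 1 female library, and 24.5, 19.96, 22.7 and 18.2 RPM in male libraries (adjusted p = 0.000176). No female library overlapped a male one for any of the 6 arms. Outside these clusters, miR-985-3p, also on the X chromosome, had no read in any female library and 6.89, 8.97, 8.87 and 5.50 RPM in male libraries, at least 5.65-fold lower in females (adjusted p = 0.000491). The arms of the miR-972 cluster and miR-985-3p met the mean of 5 reads only through the male libraries. Their calls are therefore not independent of that filter.

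The other testis clusters had reads in every female library and were lower there. miR-983-5p had 50.5, 27.5, 16.6 and 27.4 RPM in female libraries, against 402, 273, 347 and 296 in male libraries (log2 fold change -3.46, SE 0.32, adjusted p = 2.12e-05). miR-984-5p had 31.2, 12.4, 21.6 and 12.9 RPM in female libraries, against 257, 139, 301 and 169 in male libraries (log2 fold change -3.49, SE 0.25, adjusted p = 4.18e-06). miR-982-5p of the same cluster had a log2 fold change of -4.41 (adjusted p = 0.000108), and miR-983-3p was not tested, with at most 2.15 RPM in any library. miR-991-3p and miR-2498-5p had 1.06 to 5.40 and 1.06 to 2.75 RPM in female libraries, against 48.0 to 67.5 and 10.1 to 48.6 in male libraries (adjusted p = 4.70e-05 and 0.000163). Both lie close to the miR-310 cluster and on the same strand, although all listed arms of that cluster were higher in females.

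In the miR-959 cluster 8 of 9 arms were lower in females, with log2 fold changes of -3.55 for miR-960-5p, -3.40 for miR-959-3p, -3.38 for miR-960-3p, -3.15 for miR-959-5p, -2.78 for miR-961-5p, -2.57 for miR-961-3p and -1.98 for miR-964-5p (adjusted p between 0.000101 and 0.00616). Within experiment 1 alone the calls of miR-959-5p, miR-961-5p and miR-964-5p were lost (log2 fold changes -3.06, -2.17 and -1.62, adjusted p = 0.115, 0.219 and 0.152). miR-964-3p held 3 reads in females and 62 in males, a pooled male-to-female ratio of 15.5 (interval 5.07 to 77.3, adjusted p = 0.000481). That arm too met the mean of 5 reads only through the male libraries. miR-964-5p, the most abundant arm, had 35.4, 13.4, 199 and 64.4 RPM in female libraries, against 267, 133, 257 and 178 in male libraries, and here the dFOXO-null female library of experiment 1 lay within the male range. That library held the highest sum over the cluster among females, 272 RPM, against 28.3 in the lowest female library and 334 to 462 in male libraries. The ninth arm, miR-962-5p, had a log2 fold change of -0.82 and did not pass (adjusted p = 0.158). miR-12-5p, which carries the seed of miR-960-5p, had a log2 fold change of 0.33 (adjusted p = 0.303).

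**Figure D3:**
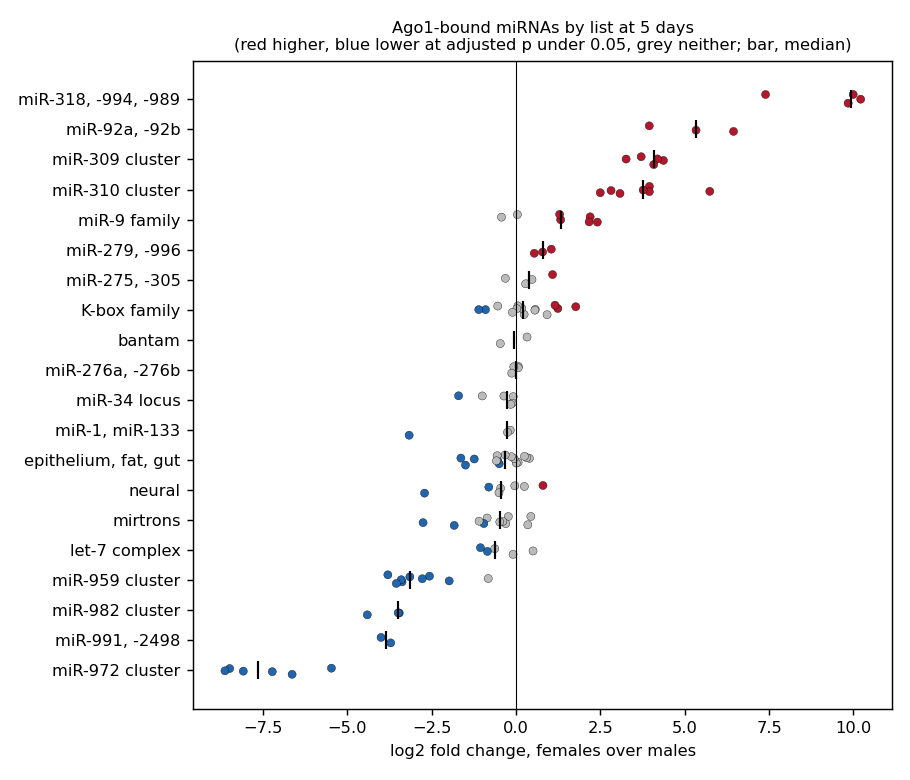
Log2 fold change of females over males (x axis) for each tested miRNA, grouped by list (y axis), in red where it was higher and in blue where it was lower in females at an adjusted p under 0.05, in grey otherwise, with a bar at the list's median. The medians run from 9.92 for miR-318, miR-994 and miR-989 to -7.66 for the miR-972 cluster.

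A further set of miRNAs with known roles outside the gonads was also higher in females. Of 7 tested arms of the miR-9 family and its neighbours in grp, 5 were higher and none lower. miR-9b-5p had 12857, 8577, 11557 and 11627 RPM in female libraries, against 3066, 2439, 1529 and 2948 in male libraries (log2 fold change 2.17, SE 0.26, adjusted p = 0.000115). miR-306-5p had 4388, 5795, 4198 and 6481 RPM in female libraries, against 629.97, 1996, 959.4 and 1168 in male libraries (log2 fold change 2.20, SE 0.24, adjusted p = 7.92e-05). miR-9c-5p had 2379, 2764, 2793 and 3027 RPM in female libraries, against 931, 1430.3, 904 and 1288 in male libraries (log2 fold change 1.29, SE 0.17, adjusted p = 0.000215). miR-9a-5p, which limits the formation of sensory organ precursors and is encoded elsewhere, had 3266, 4460.4, 2613 and 3879 RPM in female libraries and 4842, 6216, 2332 and 6476 in male libraries, and did not pass (log2 fold change -0.43, SE 0.20, adjusted p = 0.1045). The female and male libraries did not overlap for miR-9b-5p, miR-306-5p and miR-9c-5p but did for miR-9a-5p. miR-79-3p, also of the grp introns, passed with overlapping libraries (log2 fold change 1.32, adjusted p = 0.00449).

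miR-995 and miR-998, described for their shared seed, were higher in females in their 3p arms. miR-995-3p had 371, 354, 635 and 848 RPM in female libraries, against 47.8, 72.9, 63.5 and 117 in male libraries (log2 fold change 2.85, SE 0.24, adjusted p = 1.01e-05), with no overlap between the sexes. miR-998-3p had 199, 133, 243 and 331 RPM in female libraries, against 62.8, 79.0, 102 and 146 in male libraries (log2 fold change 1.23, SE 0.24, adjusted p = 0.00238), and the lowest female library lay below the highest male one. miR-11, which lies in an intron of E2f1 as miR-998 does, did not pass in either arm (log2 fold changes 0.17 for miR-11-3p and -0.54 for miR-11-5p, adjusted p = 0.324 and 0.0546). miR-285-3p, the other listed miRNA with the seed of miR-995-3p, had a log2 fold change of -0.38 and did not pass (adjusted p = 0.277). miR-275-3p, with the seed of miR-306-5p, had 15255, 7394, 18506 and 11053 RPM in female libraries, against 9218, 3484, 9370.3 and 3838 in male libraries (log2 fold change 1.08, SE 0.17, adjusted p = 0.000547). Values were higher in experiment 1 than in experiment 2 in both sexes, so the sexes overlapped over all 8 libraries, while each female library lay above the male library of its genotype and experiment.

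Other higher miRNAs lay outside the lists, and 3 examples chosen after their values were seen are miR-958-3p (log2 fold change 2.67), miR-282-5p (2.34) and miR-33-5p (1.23), which lies in the gene of the lipid regulator SREBP (adjusted p = 2.86e-05, 0.000204 and 0.000344). Of 14 arms of the K-box family (miR-2, miR-11, miR-13 and miR-308), known to restrain Notch targets and cell death genes, 3 were higher and 2 lower. Of the 8 tested arms with the K-box seed (AUCACAG), which include miR-6-3p of the miR-309 cluster, 3 were higher and 0 lower. The lower arms of the family were thus arms without that seed. miR-13b-3p and miR-13a-3p, which lie within 1 mismatch of each other and may share reads, had log2 fold changes of 1.24 and 1.15 (adjusted p = 0.00230 and 0.00340). All 3 tested arms of miR-279 and miR-996, which act in the nervous system, were higher, with log2 fold changes of 0.54 to 1.04.

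Most of the miRNAs most abundant in Ago1 did not pass the test. miR-1-3p, the muscle miRNA, had 175988, 217186, 107241 and 193672 RPM in female libraries and 229788, 218927, 147615 and 215169 in male libraries (log2 fold change -0.25, SE 0.17, adjusted p = 0.227). miR-276a-3p and miR-276b-3p had log2 fold changes of -0.07 and -0.13 (adjusted p = 0.749 and 0.514). bantam-3p, which drives growth and blocks cell death, had 75174, 68475, 59219.6 and 66164 RPM in female libraries and 51072, 50209, 56336 and 56942 in male libraries. All 4 female values lay above the male ones, yet the test was not passed (log2 fold change 0.33, SE 0.14, adjusted p = 0.0800). miR-14-3p, known from fat metabolism and cell death, had 64587, 28159, 71308 and 46590.4 RPM in female libraries and 127701, 25765, 159361 and 56656 in male libraries (log2 fold change -0.58, SE 0.24, adjusted p = 0.0707). It was higher in experiment 1 than in experiment 2 in each genotype and sex, and within experiment 1 alone it passed (log2 fold change -1.07, adjusted p = 0.0124). Of the 10 most abundant miRNAs only miR-956-3p passed, at 49202, 29427, 73115 and 36256 RPM in female libraries and 39257, 20435, 32718 and 18224 in male libraries (log2 fold change 0.75, SE 0.17, adjusted p = 0.00492). Each female library lay above the male library of its genotype and experiment. Its call was lost without experiment as a term (adjusted p = 0.115), in the fit of 16 libraries (0.168), among 21-nt reads (0.0976), within experiment 1 (0.0963) and within wDah (log2 fold change 0.43, adjusted p = 0.205).

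Other metabolic and ageing miRNAs, only some of them among the most abundant, did not pass either. miR-8-3p, which acts on insulin signalling in the fat body, had a log2 fold change of -0.14 (SE 0.13, adjusted p = 0.374). miR-277-3p, a regulator of branched-chain amino acid breakdown, had -0.36 (SE 0.20, adjusted p = 0.156) and miR-34-5p, which is linked to ageing in the brain, -0.08 (SE 0.17, adjusted p = 0.714). miR-184-3p, needed in the female germ line, had 23859.6, 34380.1, 52921 and 42526 RPM in female libraries and 27036, 34615, 32939 and 25354 in male libraries (log2 fold change 0.31, SE 0.23, adjusted p = 0.278). miR-278-3p and let-7-5p, which act in energy balance and in developmental timing, had log2 fold changes of 0.06 and -0.09 (adjusted p = 0.778 and 0.749).

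Counts in the lists of other tissues are read against the 23.6% higher and 29.6% lower among all miRNAs tested. Of 15 tested arms of the miRNAs of epithelium, fat body and gut, 5 were lower and none higher in females, a share of lower arms near that over all miRNAs, with a median log2 fold change of -0.32 against -0.17. miR-263b-5p (-1.24, adjusted p = 0.000182) and miR-263a-5p (-0.50, adjusted p = 0.0203), which protect sensory bristle cells, were among the lower. Of 7 tested neural arms, miR-1000-5p, which limits glutamate release, was higher (0.80, adjusted p = 0.0286), miR-137-3p and miR-219-3p were lower (-0.81 and -2.71, adjusted p = 0.0112 and 0.000229), and 4 did not pass. Of 3 tested muscle arms 1 was lower, miR-133-5p. Of 11 mirtrons, miRNAs spliced from whole introns, 3 were lower and none higher, again with a share of lower arms near that over all miRNAs. Of 6 tested arms of the miR-34 locus (miR-34, miR-277 and miR-317) 1 was lower, and of 4 of miR-275 and miR-305 1 was higher. Of 5 tested arms of the let-7 complex, miR-125-3p and let-7-3p, both minor arms, were lower (-1.05 and -0.85, adjusted p = 0.00886 and 0.0197). The call of let-7-3p was lost without wDah female experiment 1, dFOXO-null female experiment 2, wDah male experiment 1 or dFOXO-null male experiment 2 (log2 fold changes -0.81, -0.76, -0.86 and -0.82).

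The 2 arms of a hairpin did not always differ alike. Of 56 hairpins with both arms tested, the log2 ratio of 5p over 3p reads differed between the sexes for 16 (28.6%, limma, adjusted p under 0.05), and the less abundant arm was the relatively lower one in females in 13 of these. It was also the relatively lower one in 36 of all 56 hairpins, with a median difference between minor and main arm of -0.39 on the log2 scale. miR-34-3p had 176, 187, 615 and 196 RPM in female libraries, against 814, 512, 2122 and 547 in male libraries (log2 fold change -1.70, SE 0.32, adjusted p = 0.00183), while miR-34-5p did not pass. The dFOXO-null libraries of experiment 1 were the highest of their sex. The minor arm miR-133-5p had 0.459, 0.706, 1.66 and 0.415 RPM in female libraries, against 4.59, 5.21, 17.2 and 5.02 in male libraries (log2 fold change -3.17, SE 0.52, adjusted p = 0.000767), and the main arm miR-133-3p, of muscle, had a log2 fold change of -0.17 (adjusted p = 0.497). The female values of miR-133-5p stood for 3 reads or fewer per library, so the size of its difference is uncertain. miR-14 did not pass the ratio test (adjusted p = 0.222), and its minor arm miR-14-5p had 58.8, 71.7, 364 and 35.3 RPM in female libraries and 339, 257, 726 and 133 in male libraries (log2 fold change -1.64, SE 0.55, adjusted p = 0.0307). Its call was lost without dFOXO-null female experiment 2, wDah male experiment 2 or dFOXO-null male experiment 1 (log2 fold changes -1.38, -1.21 and -1.51). In the ratio test, miR-994 remained past the threshold with any 1 library left out, but its 3p arm had 3 reads in males. With so few reads the male ratio depends largely on the 0.5 reads added to each arm. The call of miR-994 therefore adds no support for a difference between its arms. The count itself rested on single libraries. It was 1 without wDah female experiment 1, 1 without dFOXO-null male experiment 1, 4 without dFOXO-null female experiment 2, 6 without wDah male experiment 1, 9 without dFOXO-null male experiment 2, and 1 without experiment as a term.

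The length of the bound reads was compared next. Over all miRNAs, reads of exactly 21 nt made up 13.5% to 14.2% of reads in female libraries and 11.5% to 12.4% in male libraries. Among 129 miRNAs averaging at least 5 reads of 21 nt and 5 of other lengths, the ratio of 21-nt reads to all others differed for 25 (19.4%, limma, adjusted p under 0.05), with a smaller 21-nt share in females for 18 and a larger one for 7. The miR-310 cluster held 3 of the 18. Reads of 21 nt made up 2.76, 4.06, 2.91 and 3.90% of miR-310-3p reads in female libraries and 8.29, 12.8, 9.41 and 12.7% in male libraries (adjusted p = 0.000484). For miR-312-3p the shares were 14.8, 12.8, 13.8 and 11.1% in female libraries and 27.1, 25.6, 27.6 and 25.0% in male libraries (adjusted p = 0.00139). For miR-311-3p they were 9.49, 9.96, 9.04 and 9.14% in female libraries and 18.6, 22.4, 21.6 and 20.2% in male libraries (adjusted p = 0.00139). Every female share lay below every male share for these 3 arms.

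In the miR-9 family the direction was not the same for each member. miR-9c-5p was mostly 21 nt long, at 79.5, 86.4, 72.7 and 85.0% in female libraries and 94.0, 95.6, 92.6 and 94.5% in male libraries (adjusted p = 0.000596). miR-9b-5p had a larger 21-nt share in females, 9.14, 8.83, 10.4 and 9.69% in female libraries against 5.67, 4.16, 5.44 and 6.08% in male libraries (adjusted p = 0.0132). let-7-5p had 21-nt shares of 45.9, 9.94, 54.1 and 6.80% in female libraries and 6.74, 3.15, 19.97 and 2.40% in male libraries (adjusted p = 0.0185). Here the libraries of experiment 1 were far higher than those of experiment 2 in each genotype and sex, and the sexes overlapped. Among 21-nt reads alone, let-7-5p was higher in females (log2 fold change 1.49, adjusted p = 0.000228), while among all reads its log2 fold change was -0.09 (adjusted p = 0.749). miR-310-3p, miR-311-3p, miR-312-3p and miR-9c-5p passed with any 1 library left out, miR-9b-5p passed in 6 of the 8 such fits and let-7-5p in 4. The count of 25 fell to 4 without dFOXO-null female experiment 1, 9 without wDah female experiment 2, 9 without dFOXO-null male experiment 2, 10 without wDah female experiment 1, 11 without wDah male experiment 2, and 7 without experiment as a term. At 35 days 1 miRNA, miR-1010-3p, passed the same test, and 24 of the 25 differed in the same direction.

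**Figure D4:**
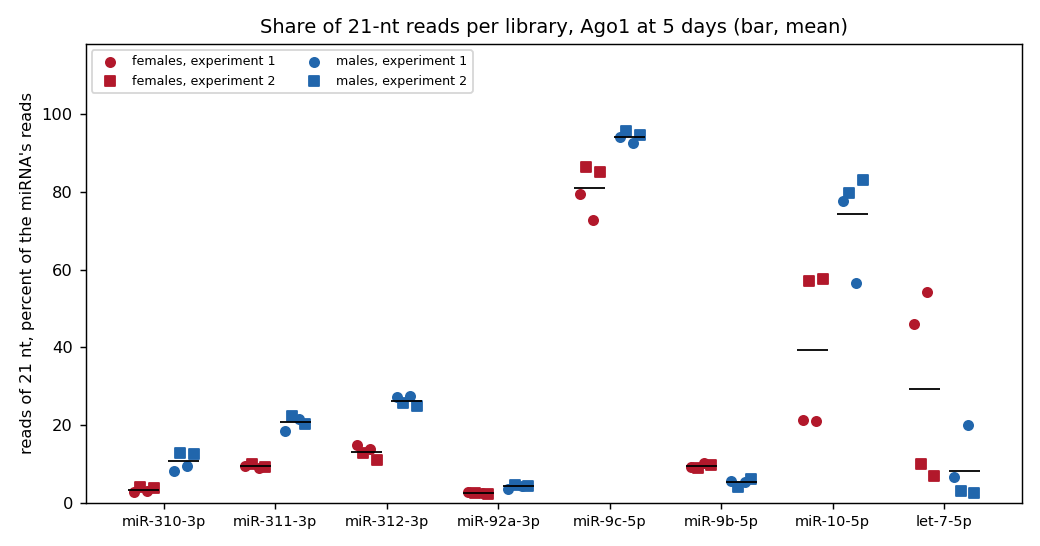
Share of a miRNA's reads that were exactly 21 nt long (y axis, percent) in each female (red) and male (blue) library for 8 miRNAs, with circles for experiment 1, squares for experiment 2 and bars for the mean of 4 libraries. The female shares of miR-310-3p, miR-311-3p and miR-312-3p lie between 2.76% and 14.8%, each below the male shares of the same miRNA.

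The split between lower and higher miRNAs varied with the chromosome. Of 29 tested miRNAs encoded on the X chromosome 18 were lower and 1 higher in females (median log2 fold change -0.76), while of 165 on the autosomes 39 were lower and 46 higher (median -0.06). With the testis clusters left out, 9 of 20 on the X chromosome were lower and 1 higher, against 29 and 46 of 154 on the autosomes. These are counts of arms, some of which share a hairpin or a host gene, so they are not independent. The X-linked arms left include miR-985-3p, which had no read in females.

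The same contrast in the 8 Ago1 libraries of 35-day-old flies gave 90 of 199 miRNAs (45.2%) past the threshold, 42 higher and 48 lower in females. With trimmed-mean (TMM) scaling the split was 51 higher and 38 lower, and without experiment as a term 51 passed in all. Young and old libraries of a genotype carried the same experiment numbers and may share a cohort of flies, so the ages may not be independent. Of the 106 miRNAs that passed at 5 days, 105 had the same direction at 35 days and 78 of these passed there too. miR-969-3p was the exception, with log2 fold changes of 0.21 at 35 days and -0.76 at 5 days. miR-318-3p had 8679.5, 6521, 11037 and 7872 RPM in 35-day female libraries, against 23.8, 40.1, 20.2 and 18.2 in 35-day male libraries (log2 fold change 8.39). miR-989-3p had 2607, 3953, 7793 and 10345 RPM in 35-day female libraries, against 2.55, 4.73, 5.05 and 9.26 in 35-day male libraries (10.08). miR-976-3p had 0, 1.28, 0.648 and 0.567 RPM in 35-day female libraries, against 44.6, 114, 91.5 and 139 in 35-day male libraries (-7.28). The female libraries stood above the male ones for the first 2 and below for the third, as at 5 days. The median over the 20 tested testis arms was -2.82 at 35 days and -3.63 at 5 days. No miRNA had a sex difference that changed between the ages past the threshold in the interaction test (0 of 199, 0%, edgeR, with 12 at an unadjusted p under 0.05). With 2 samples per group, a p above the threshold does not show that the differences were equal.

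**Figure D5:**
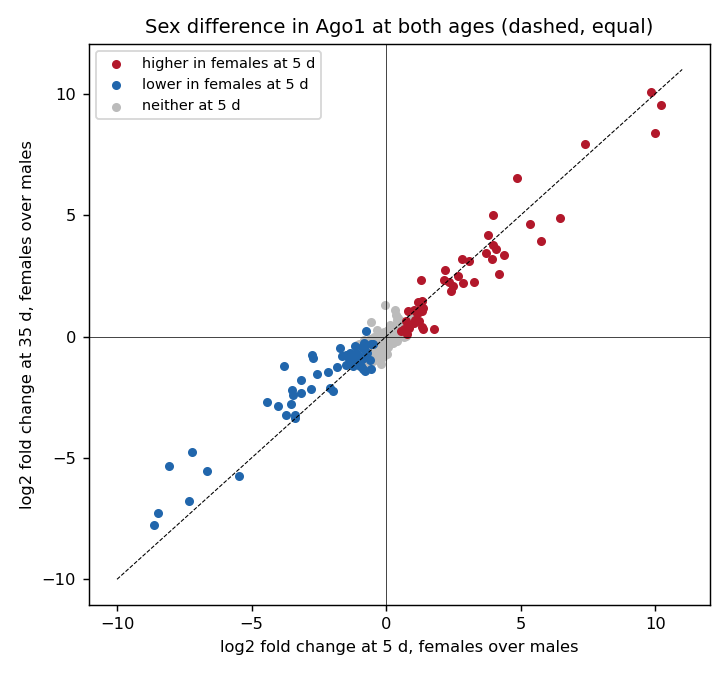
Log2 fold change of females over males at 5 days (x axis) and at 35 days (y axis) for the 199 miRNAs, in red where higher and in blue where lower in females at 5 days, with a dashed line where both are equal. 105 of the 106 coloured points have the same sign on both axes.

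The sex difference was also compared between dFOXO-null and wDah flies. No miRNA passed the interaction of sex and genotype (0 of 199, 0%, edgeR, with 15 at an unadjusted p under 0.05). Fitted within a genotype, miR-318-3p had a log2 fold change of 9.77 in dFOXO-null flies and 10.20 in wDah flies, and miR-976-3p had -8.63 in dFOXO-null flies and -8.33 in wDah flies. miR-6-3p had 2.77 in dFOXO-null flies and 5.14 in wDah flies, with an interaction in the joint fit of -2.13 (adjusted p = 0.626). Without dFOXO-null female experiment 2, the interactions of miR-6-3p and miR-5-5p were -3.56 and -3.88. That fit left only experiment 1 among dFOXO-null females, the lowest female library for both arms. These values thus add no support for a difference between genotypes.

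Transposon reads, which share the library size with miRNA reads, made up 0.509% to 1.42% of mapped reads in female libraries and 0.155% to 0.599% in male libraries. The difference of means was 0.586 percentage points and did not pass (exact permutation test, two-sided, p = 0.0857 over 70 arrangements, where the smallest possible p is 0.0286). The female library lay above the male library in all 4 pairs of the same genotype and experiment, at 0.509% and 0.182%, 1.42% and 0.155%, 0.656% and 0.599%, and 1.26% and 0.565%. Exchanging the sexes within these pairs gave an exact p of 0.125, the smallest that 4 pairs allow. The difference was 0.192 points within experiment 1 and 0.980 points within experiment 2. With each library left out in turn, the difference was 0.432 to 0.736 points. It was 0.736 points without the wDah female library of experiment 1, the lowest female one (p = 0.0286, exact permutation test). The libraries then left did not overlap, and that p is the smallest they allow, so it adds no support for a difference.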

How the data were processed

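Small RNAs bound to Ago1 were measured in 4 female and 4 male libraries of 5-day-old flies, and the 8 libraries of 35-day-old flies served the comparison of ages. The authors sequenced NEBNext libraries on a NextSeq500, trimmed them with Trim Galore, took the reverse complement, kept reads of up to 25 nt (and separately of 21 nt), and aligned them with Bowtie (through sR_bowtie), allowing 1 mismatch and all valid places, to a set of spike-ins, transposons, mature miRNAs and their star strands. The deposited values are raw counts per feature from featureCounts, and the submitters' processing notes name build dm6. The authors' own filter on rare features and their scaling to mapped reads came after these tables. Near copies within 1 mismatch (miR-2a, 2b and 2c-3p, miR-13a and 13b-3p, miR-276a and 276b, miR-281-1 and 281-2-5p, miR-31a and 31b-5p) can share reads.

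From these counts, library size was taken as the total of each column without spike-in rows. Females were compared with males in edgeR 4.0.16 (R 4.3.3) by the quasi-likelihood test with genotype and experiment as terms, with the Benjamini-Hochberg adjustment across every miRNA tested and a threshold of 0.05. The 10 listed miRNAs averaging under 5 reads were miR-79-5p, miR-100-3p, miR-124-5p, miR-263a-3p, miR-965-5p, miR-970-5p, miR-983-3p, miR-998-5p, miR-1002-3p and miR-9375-5p. The experiment number paired the libraries: deviations from group means in libraries of the same number correlated at 0.42 to 0.65 in all 6 pairs of groups. Interactions of sex with genotype and with age were tested in the same way. Arm ratios (log2 of 5p over 3p reads, 0.5 added to each) and 21-nt shares were tested with limma 3.58.1 and were chosen after the data had been seen. The scripts were tested on simulated data with known answers. DESeq2 1.42.0, other scalings, filters and designs, and each library left out in turn were tried as alternatives.

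The named miRNAs were those with the 10 largest and the 10 smallest log2 fold changes among calls whose sexes did not overlap, the 10 most abundant, the members of the gonad and embryo lists that passed with their other arms, 6 metabolic or ageing miRNAs, and up to 3 examples of other lists. The miRNAs named by shared seed and those outside the lists were chosen after their values were seen. The members and lists were chosen with earlier results of these data known. Of the 209 listed miRNAs 203 matched RefSeq by name. Replicates differed beyond sampling noise (chi-square per degree of freedom 862 to 2505). PCR reads are not independent molecules, so intervals and the floor of 3 reads cover counting error only. Old and young libraries of a genotype and experiment number may share a cohort of flies, and p-values measure the spread among these libraries only.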

Additional observations from a re-analysis of the deposited data

Results flagged for a closer look

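In 7 of 124 sets of 4 libraries checked (named miRNAs by sex), 1 library lay far from the other 3 of its sex, and chance alone gives about 1 in 20. All 7 were female libraries. Of these, 4 came from miRNAs of the miR-972 cluster with reads in 1 female library and none in the others. They were miR-973-5p at 1.66 RPM in dFOXO-null experiment 2, miR-4966-3p at 0.353 in wDah experiment 2, and miR-975-5p and miR-977-5p at 0.555 each in dFOXO-null experiment 1. These values stood for 4 reads of miR-973-5p and 1 read of each other miRNA. A single library with reads stands apart from 3 zeros whatever its count, so these 4 flags cannot be set against the rate of 1 in 20.

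The other 3 were minor arms in the dFOXO-null female library of experiment 1. miR-311-5p stood at 160.4 RPM there and at 17.0 to 37.2 in the other female libraries. miR-14-5p stood at 364.02 there and at 35.3 to 71.7 in the other female libraries. miR-34-3p stood at 615 there and at 176 to 196 in the other female libraries. The dFOXO-null male library of experiment 1 was the highest of the male libraries for the same 3 arms, at 21.2, 726 and 2122 RPM, and the cause was not tested.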

How the results depend on the processing

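The count of 106 miRNAs at 5 days lay between 90 and 107 with each library left out, was 110 with TMM scaling, 106 with DESeq2 (100 of them shared), and 71 with no replicate block, all 71 shared. The block for experiment is part of the reported test, and the pairing rests on the correlations given with the methods. The count was 68 in 1 fit of 16 libraries and 65 within experiment 1. Scaling moved the median of all miRNAs by less than 0.04 on the log2 scale. The 35-day count of 90 was 51 with no replicate block and 71 to 101 with a library left out. For the genotype interaction, leaving a library out left no replicate in a group of sex and genotype, so those fits cannot decide it. The age interaction gave 2 calls among 21-nt reads (miR-9c-5p and miR-310-3p) and 0 with any library left out. Arm ratios gave 1 call and 21-nt shares 7 calls with no replicate block, and 1 to 20 and 4 to 25 with a library left out. The transposon difference was 0.432 to 0.736 points with a library left out. The cause of these shifts was not tested.

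Of the 43 named miRNAs that passed, none reversed in direction. With a library left out, 332 of 344 values kept their side of the threshold and 12 lost it (those of miR-8-5p, let-7-3p and miR-14-5p), and under the other settings 592 of 617 kept it and 25 lost it. Among the 18 named miRNAs that had not passed, 3 values with a library left out and 17 under the other settings came to pass, such as miR-276a-3p (-0.30), miR-276b-3p (-0.35) and bantam-3p (0.33) within experiment 2 and miR-184-3p within dFOXO-null (0.72). Every reversal was of such a miRNA. Among 21-nt reads the log2 fold changes were -0.20 for bantam-3p, -0.10 for miR-184-3p, 1.49 for let-7-5p and -0.38 for miR-276a-5p and miR-276b-5p. Within experiment 1 they were 0.16 for miR-276a-3p and 0.10 for miR-276b-3p, and within experiment 2 they were 0.017 for miR-34-5p and -0.10 for both miR-276-5p arms. Within wDah they were 0.18 for miR-34-5p, -0.10 for miR-184-3p and -0.049 for miR-278-3p, and within dFOXO-null 0.0032 for let-7-5p and -0.22 for both miR-276-5p arms. With a library left out, the ranges were -0.15 to 0.36 for miR-276a-5p, -0.15 to 0.36 for miR-276b-5p, -0.25 to 0.060 for let-7-5p, -0.22 to 0.069 for miR-34-5p, -0.056 to 0.18 for miR-278-3p and -0.18 to 0.046 for miR-276a-3p. Rare miRNAs are limited by depth: 3 reads correspond to 0.718 to 1.66 RPM over the 8 libraries.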
